A study of Mus musculus with 16 samples.

Results

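ATP-binding cassette (ABC) transporters are described here as the genes whose mouse symbol begins with Abc, followed by a subfamily letter from a to g and a number. The rule took 50 of the 21965 genes in the count table: 16 of subfamily A, 10 of B, 10 of C, 4 of D, 1 of E, 3 of F and 6 of G. All 50 were protein coding in GENCODE M21, which holds no further gene of such a symbol. RNA-seq libraries were made from the ileum of 16 male mice on the C57BL/6 background, 1 library per mouse, which were 8 to 10 weeks old when the liquid diets began. The fat-1 mice were heterozygous for a C. elegans n3 fatty acid desaturase gene (Fat1+/- in the sample labels) expressed in all tissues, and the WT mice were their littermates. The 4 groups were 4 WT and 4 fat-1 mice pair-fed (PF) a control liquid diet in which maltose dextrin took the place of ethanol, and 3 WT and 5 fat-1 mice fed ethanol (EtOH) rising stepwise to 6% v/v. The transgene itself is not a mouse gene and was not analysed here. All values below are CPM, counts scaled to a common total per library, over the library size adjusted by TMM (trimmed mean of M values, a scaling of libraries to a common level).

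ABC transporters use the energy of ATP to move lipids, sterols, bile acids, drug conjugates, peptides or ions across membranes. In the gut, Abcb1a, Abcg2 and Abcc2 return drugs and conjugates from the enterocyte to the lumen, Abcg5 with Abcg8 returns plant sterols and cholesterol to the lumen, and Abca1 loads cholesterol onto lipoproteins at the basolateral side. Most of the D subfamily brings fatty acids into peroxisomes, several B members serve mitochondria or lysosomes, and the E and F members lack membrane parts and work on ribosomes.

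The libraries held 8422645 to 11438539 counts, and 5 of them stood apart by marker genes of gut regions. The summed level of 9 large intestine markers (Fxyd4 at 0 in all libraries) was 98.9 to 344 CPM in PF mice and 305 to 448 CPM in 5 EtOH mice, but 4745 CPM in WT EtOH mouse 2 and 11850.1 and 12792 CPM in fat-1 EtOH mice 3 and 4. Those last mice also had the lowest Paneth cell marker sums, 127 and 115 CPM, so that Paneth cell markers of the small intestine were nearly absent from libraries labelled ileum. The 6 ileal bile acid genes summed to 522 and 455 CPM in fat-1 PF mice 2 and 4 and 1065 and 1996 CPM in fat-1 EtOH mice 3 and 4, against 2472 to 8214 CPM in the other 12. Proximal small intestine markers ranged from 1965 to 52696 CPM in PF mice, highest in fat-1 PF mice 2 and 4, and from 335 to 462 CPM in 6 EtOH mice. Fat-1 EtOH mouse 5 was highest in B-cell follicle markers, at 509 CPM. In bulk tissue, fewer cells of a type and less RNA per cell cannot be told apart. Library numbers 1 to 8 were PF and 9 to 16 EtOH, so library order and diet cannot be told apart.

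Of the 50 genes, 40 had enough counts to be tested, and levels between genes were compared as CPM per kb of merged exon length. The highest median level was that of Abcb1a, the drug efflux pump P-glycoprotein, at 163 CPM per kb, followed by Abcg5 at 109.7, Abcg8 at 63.6, Abcd3 at 55.5, Abcg2 at 40.8 and Abcf1 at 31.3 CPM per kb. These 6 genes held 57.3 to 75.1% of the summed ABC level per kb in each library. The spread over libraries covered neighbours in this order: Abcg5 ranged from 1.02 to 181 CPM per kb and Abcb1a from 88.9 to 294 CPM per kb.

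**Figure D1:**
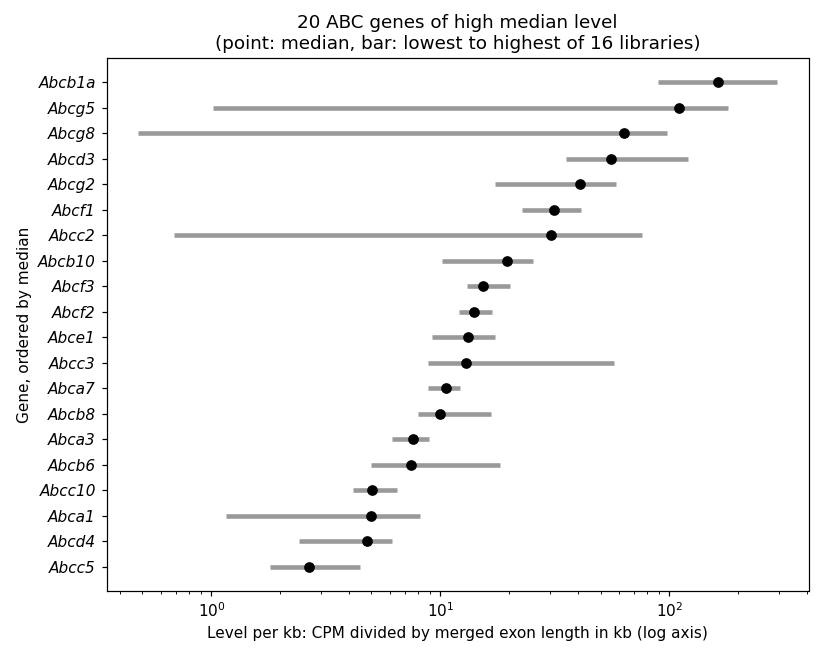
20 ABC genes of high median level, in CPM per kb of exon on a log axis; points are medians and bars run from the lowest to the highest of 16 libraries. Abcb1a led at a median of 163 CPM per kb, and Abcg5, Abcg8 and Abcc2 had the longest bars toward low values.

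Subfamily G held 27.7 to 38.0% of the summed ABC level per kb in 14 libraries and 3.76 and 3.87% in fat-1 EtOH mice 3 and 4. Subfamily B, mostly Abcb1a, held 21.1 to 33.0% in PF mice, 36.5 to 39.9% in WT EtOH mice and 29.2 to 41.6% in fat-1 EtOH mice. Subfamily D took 23.6% in both fat-1 EtOH mice 3 and 4, against 8.29 to 19.3% in the other 14 libraries.

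**Figure D2:**
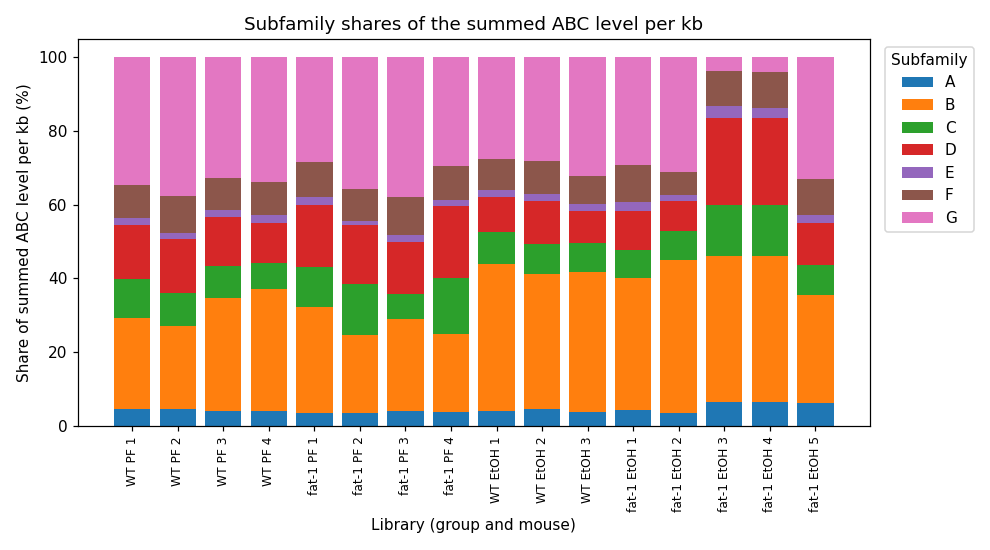
Share of the summed ABC level per kb (in percent) taken by subfamilies A to G in each of 16 libraries, as stacked bars. The G share was 27.7 to 38.0% in 14 libraries but 3.76 and 3.87% in fat-1 EtOH mice 3 and 4, where the D share was 23.6%.

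EtOH was compared with PF as the mean of the effects in WT and fat-1 mice, and in each genotype alone. A gene was called changed at an adjusted p of at most 0.05 in the quasi-likelihood test of edgeR, adjusted by the Benjamini-Hochberg method over all 13811 genes tested. With the effect averaged over genotypes, 20 of the 40 tested ABC genes were called (11 rose and 9 fell), where 35.9% of all genes tested were called (18.3% rose and 17.6% fell). Abca12 and Abcg4, which are in the counts here and for fat-1 mice, had too few counts in fat-1 PF mice to give a fold and were not tested under the stricter filter on low counts. In fat-1 mice, 24 of 40 were called (14 rose and 10 fell), against a background of 37.4% (18.7% rose and 18.8% fell). In WT mice 0 of 40 were called, against 0.0796% of all genes. Of the 40, 9 had an unadjusted p under 0.05 in WT mice, against 14.1% of all genes, and limma voom with sample quality weights called 10 (beside 20.3% of all genes) and the Wald test of DESeq2 called 1, Abcc5 (beside 1.86%). The interaction of genotype and EtOH called 0 of 40, against 0% of all genes, with 4 at an unadjusted p under 0.05 (among them Abcc9, Abcf1 and Abcg4) against 8.26%. DESeq2 and voom also called 0 members for the interaction, so a difference of the EtOH effect between genotypes was not detected for any member. The median log2 fold change of the tested members was 0.14 averaged over genotypes, beside 0.04 over all genes tested, and 0.20 beside 0.05 in fat-1 mice. Marker genes of cells outside the epithelium also moved averaged over genotypes: 6 of 6 fibroblast, 6 of 6 smooth muscle and 3 of 6 enteric neuron and glia markers rose, as did 3 of 5 tuft cell and 2 of 6 goblet cell markers of the epithelium. Of 7 B-cell follicle, 6 T cell, 8 macrophage and 5 vessel markers, 0 were called. Without the 5 libraries that stood apart, where 12.9% of all genes tested rose, the fibroblast and smooth muscle counts were again 6 of 6. The tuft cell count was then 5 of 5 and the neuron and glia count 0 of 6. The part of these cells in the members' changes was not tested. Upper-quartile scaling moved the median of all genes to 0.14 averaged and to 0.20 in fat-1 mice. The members' medians above are under TMM and cannot be set beside these values. Under upper-quartile scaling the averaged split of calls also moved toward higher. There 17 of the 20 averaged calls were kept, and Abca3, Abca8a, Abcc4 and Abcc10 were called in addition.

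**Figure D3:**
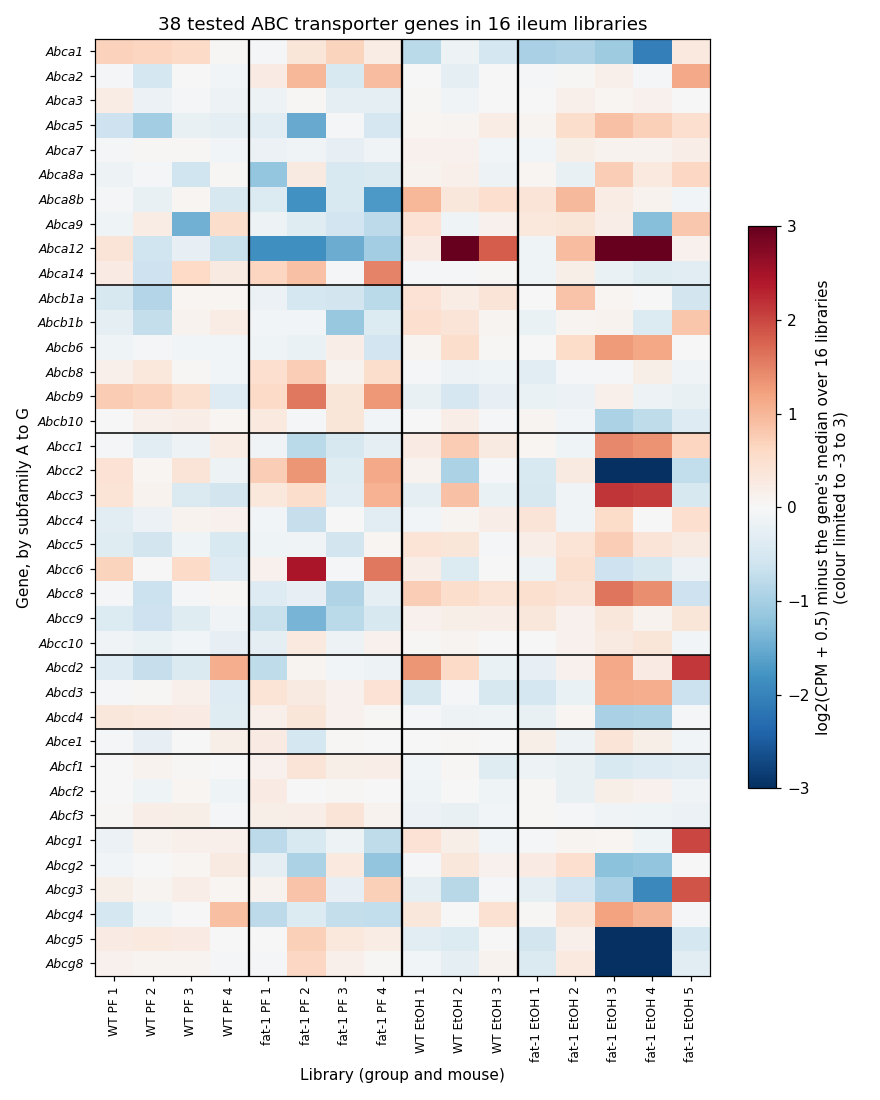
38 tested ABC genes (rows, by subfamily) in 16 libraries (columns, by group), coloured by log2(CPM + 0.5) minus the gene's median. Abcc2, Abcg5 and Abcg8 were lowest, and Abca12 and Abcc3 highest, in fat-1 EtOH mice 3 and 4.

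Without the 5 libraries that stood apart (a choice made after seeing the data), 15 of 39 members were called averaged over genotypes, beside 27.6% of all genes, and 6 of 39 in fat-1 mice, beside 11.9%. Of the 20 members called with all libraries, 12 kept their call, among them Abca1, Abca5, Abca8b, Abcb8, Abcb9, Abcc5, Abcc8, Abcc9, Abcf1 and Abcf3. Abcb10, Abcc10 and Abcd3 were called in addition. In 3 of the 40 tested genes (Abca5 and Abcc9 among them) no value of the 8 EtOH mice overlapped those of the 8 PF mice, beside 7.78% of all genes tested.

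The sterol exporters Abcg5 (ENSMUSG00000040505, chr17:84658234-84683011, minus strand) and Abcg8 (ENSMUSG00000024254, chr17:84676302-84700333, plus strand), positions in GRCm38 as in GENCODE M21, work only as a pair and were among the most abundant ABC genes in 14 libraries and near 0 in 2. Abcg5 was at 352, 362, 352 and 297 CPM in WT PF mice, 294, 490.1, 373 and 346 in fat-1 PF mice, 234, 222 and 297 in WT EtOH mice and 203, 330.1, 3.93, 2.76 and 207 in fat-1 EtOH mice. Abcg8 was at 259, 254, 253 and 233 CPM in WT PF mice, 229, 365, 264 and 243 in fat-1 PF mice, 225, 199 and 256 in WT EtOH mice and 177, 290.2, 1.80, 3.30 and 189 in fat-1 EtOH mice. The values of fat-1 EtOH mice 3 and 4 lay far below all others for both genes, and of the other 6 EtOH mice 4 were below all PF mice and 2 lay within their range, for each gene. The averaged log2 fold change was -0.88 ± 0.68, adjusted p = 0.325 for Abcg5 and -0.60 ± 0.69, adjusted p = 0.519 for Abcg8. Without the 3 EtOH libraries high in large intestine markers, Abcg5 was called averaged over genotypes (-0.47, adjusted p = 0.0303) and in fat-1 mice (-0.57, adjusted p = 0.0441), and without all 5 libraries that stood apart it was not (-0.38, adjusted p = 0.0705). Abcg8 was called in neither (-0.18, adjusted p = 0.339, and -0.10, adjusted p = 0.574). The level of Abcg8 per kb was 0.507 to 0.568 times that of Abcg5 in the 8 PF mice and 0.623 to 0.694 times in the 6 EtOH mice outside the low pair. In fat-1 EtOH mice 3 and 4, where both genes were near 0, the ratio was 0.332 and 0.863, so that the range over all EtOH mice covered that of the PF mice. The low pair was set aside after seeing the data, and how often other gene pairs separate in this way was not tested. The region markers moved with the low values, and their part in the result was not tested.

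The pair sits head to head on chromosome 17, Abcg5 on the minus strand and Abcg8 on the plus strand, and the stretch between their RefSeq starts is shown because both genes were low in the same libraries. It is 109 bases long (GRCm38.p6, chr17:84683012-84683120, plus strand); a further GENCODE transcript of Abcg8 starts inside Abcg5, so that 3.02% of the exon bases of Abcg5 and 2.19% of those of Abcg8 overlap. Capitals mark exact matches on either strand to the GATA motif, written AGATAA and in its other form TGATAA, and to the TATA box, written TATAAA. No match overlaps another. The stretch holds 2 GATA matches and 1 TATA match, and of the last 109 bases before 32817 RefSeq starts, 6.77% hold a GATA match and 5.91% a TATA match.
Abcg5 to Abcg8: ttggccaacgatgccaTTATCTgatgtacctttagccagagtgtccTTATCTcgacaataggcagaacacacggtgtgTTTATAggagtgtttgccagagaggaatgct

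Abcg2, the breast cancer resistance protein that returns drugs and urate to the lumen, was at 313, 330.3, 346 and 404 CPM in WT PF mice and 272, 172, 409.7 and 146 in fat-1 PF mice. In WT EtOH mice it was at 320.1, 422 and 362 CPM and in fat-1 EtOH mice at 396, 476, 141, 146 and 336. The lowest 4 values were those of fat-1 PF mice 2 and 4 and fat-1 EtOH mice 3 and 4, which were also the 4 lowest in ileal bile acid genes, and the groups overlapped (averaged log2 fold change 0.17 ± 0.27, adjusted p = 0.652). Abcg1, a cholesterol exporter of macrophages and other cells, was at 2.01 to 5.37 CPM in 15 libraries and at 17.1 CPM in fat-1 EtOH mouse 5, the library highest in macrophage markers (329 CPM). That library was also highest in B-cell follicle, T cell (156 CPM), vessel (117 CPM) and adipocyte markers (972 CPM), whose part in the value was not tested. Abcg1 rose in fat-1 mice (1.35 ± 0.45, adjusted p = 0.03) and not when averaged (0.74 ± 0.33, adjusted p = 0.0915), and without fat-1 EtOH mouse 5 the fat-1 value was 0.61, adjusted p = 0.0319. Leaving out fat-1 PF mouse 1, 2 or 4 ended that call (1.26, adjusted p = 0.0686, 1.39, adjusted p = 0.0604 and 1.28, adjusted p = 0.0752). Abcg4, a brain sterol exporter, was at 0.106, 0.281, 0.137 and 0.123 CPM in fat-1 PF mice and 0.570, 0.850, 1.88, 1.60 and 0.513 in fat-1 EtOH mice, at most 1.88 CPM anywhere. Fat-1 PF mice had 1, 2, 1 and 1 counts of it, under the floor of 3 counts, so no fold is given. It was called averaged (adjusted p = 0.0224) and in fat-1 mice (adjusted p = 0.006), but it passed the filter on low counts through its higher libraries and could not be tested without WT PF mouse 4, without fat-1 EtOH mouse 3 or 4, or without all 5 libraries that stood apart. Without WT EtOH mouse 3 the averaged call was lost (adjusted p = 0.0564). Abcg3 ranged from 1.07 to 10.2 CPM but for 21.6 CPM in fat-1 EtOH mouse 5.

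In subfamily A, the cholesterol exporter Abca1 (ENSMUSG00000015243, chr4:53030787-53159895, minus strand) fell with EtOH. Its values were 84.1, 81.3, 76.7 and 53.1 CPM in WT PF mice, 50.4, 66.9, 82.2 and 60.3 in fat-1 PF mice, 29.5, 46.2 and 35.6 in WT EtOH mice and 26.1, 27.3, 24.3, 12.03 and 63.1 in fat-1 EtOH mice. The 3 WT EtOH mice were below all 4 WT PF mice, and of the fat-1 EtOH mice 4 were below all fat-1 PF mice while mouse 5 lay within them. The averaged log2 fold change was -1.04 ± 0.26, adjusted p = 0.00802, and without all 5 libraries that stood apart it was -0.96, adjusted p = 0.0273. In fat-1 mice alone it was -1.09 ± 0.34, adjusted p = 0.0227, and the call was lost without fat-1 PF mouse 2 (-1.06, adjusted p = 0.0513), fat-1 PF mouse 3 (-0.94, adjusted p = 0.0659) or fat-1 EtOH mouse 3 (-1.005, adjusted p = 0.0515). It was also lost without the 3 EtOH libraries high in large intestine markers (-0.72, adjusted p = 0.0819), without the 2 PF libraries low in ileal genes (-1.11, adjusted p = 0.102), without all 5 (-0.76, adjusted p = 0.195) and when only the groups compared were fitted (-1.06, adjusted p = 0.0806).

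Abca12 (ENSMUSG00000050296, chr1:71242276-71414910, minus strand), a lipid exporter best known from the skin barrier, varied widely between mice. It was at 1.86, 0.679, 0.999 and 0.623 CPM in WT PF mice, 0, 0, 0.137 and 0.368 in fat-1 PF mice, 1.61, 41.5 and 5.79 in WT EtOH mice and 1.14, 2.89, 121, 136 and 1.45 in fat-1 EtOH mice. Fat-1 PF mice had 0, 0, 1 and 3 counts of it. The values of fat-1 EtOH mice 3 and 4 and WT EtOH mouse 2 were the highest, and these were the 3 libraries highest in large intestine markers. With so few counts in fat-1 PF mice no fold is given. It was called averaged over genotypes (adjusted p = 0.0035), but it passed the filter on low counts through its higher libraries. It could not be tested under the stricter filter and was not called by limma voom with sample quality weights (adjusted p = 0.134). Without the 3 EtOH libraries high in large intestine markers, and without all 5 that stood apart, Abca12 was still called, averaged and in fat-1 mice. The fat-1 call was lost without the 2 PF libraries low in ileal genes (adjusted p = 0.0798). The part of the region markers in the result was not tested.

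Of the other members of subfamily A, the highest per kb were Abca7 and Abca3, a phagocytosis-linked lipid transporter and the surfactant lipid transporter of the lung. Abca7 ranged from 59.8 to 82.1 CPM and rose averaged (0.17 ± 0.058, adjusted p = 0.0366), and Abca3 ranged from 57.5 to 83.6 CPM and rose in fat-1 mice (0.25 ± 0.095, adjusted p = 0.0492). Both changes were small, and leaving out single libraries ended the call of Abca7 in 5 of 16 fits and that of Abca3 in 11 of 16; voom called neither (Abca7 0.14, adjusted p = 0.0624, and Abca3 0.26, adjusted p = 0.14). Abca5, a lysosomal lipid transporter, was at 1.97, 1.36, 2.78 and 2.60 CPM in WT PF mice, 2.54, 0.842, 3.14 and 2.21 in fat-1 PF mice, 3.49, 3.57 and 3.95 in WT EtOH mice and 3.51, 5.01, 6.47, 5.79 and 4.87 in fat-1 EtOH mice. All 8 EtOH mice were above all 8 PF mice (averaged 0.99 ± 0.23, adjusted p = 0.00474). Abca8b rose from 1.12 to 5.44 CPM in PF mice to 4.95 to 11.01 CPM in EtOH mice (1.17 ± 0.26, adjusted p = 0.00366). Abca8a rose in fat-1 mice (0.75 ± 0.28, adjusted p = 0.0459), a call lost in 12 of 16 fits that left out a library. Abca14, at 0.679 to 4.54 CPM, fell averaged (-0.78 ± 0.27, adjusted p = 0.039), a call also lost in 12 of 16 and with upper-quartile scaling (-0.68, adjusted p = 0.0607). Abca2 and Abca9 passed the edgeR test in no comparison.

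Abcc2 (ENSMUSG00000025194, chr19:43782192-43840740, plus strand), which pumps glucuronide and glutathione conjugates into the gut lumen, and Abcc3 (ENSMUSG00000020865, chr11:94343295-94392997, minus strand), which exports conjugates and bile acids at the basolateral side, are the highest members of subfamily C per kb. Abcc2 was at 350.0, 268, 339.7 and 231 CPM in WT PF mice, 428, 645, 200.3 and 564 in fat-1 PF mice, 280.0, 133 and 249 in WT EtOH mice and 187, 309, 7.21, 5.88 and 155 in fat-1 EtOH mice. Abcc3 was at 97.2, 78.96, 54.6 and 50.4 CPM in WT PF mice, 91.96, 106, 57.8 and 153 in fat-1 PF mice, 60.04, 135 and 64.1 in WT EtOH mice and 52.4, 68.5, 326, 317 and 52.8 in fat-1 EtOH mice. In fat-1 EtOH mice 3 and 4 Abcc2 was the lowest and Abcc3 the highest of all libraries, and of the other 6 EtOH mice 3 had Abcc2 below all PF mice, whereas their Abcc3 lay within the range of the PF mice. The ratio of Abcc3 to Abcc2 per kb was 0.241 to 0.510 in 13 libraries, 1.52 in WT EtOH mouse 2, and 67.6 and 80.8 in fat-1 EtOH mice 3 and 4. Averaged over genotypes the log2 fold change was -1.11 ± 0.63, adjusted p = 0.182 for Abcc2 and 0.49 ± 0.42, adjusted p = 0.386 for Abcc3. Without the 3 EtOH libraries high in large intestine markers Abcc3 turned negative (-0.48, adjusted p = 0.114) and Abcc2 was -0.61, adjusted p = 0.096. In fat-1 mice Abcc2 was -1.79, adjusted p = 0.101 with all libraries. It was called without the 3 (-1.05, adjusted p = 0.0424) and without fat-1 EtOH mouse 2 (-2.37, adjusted p = 0.0448), and was not called without all 5 that stood apart (-0.52, adjusted p = 0.318). The region markers moved with these values, and their part in the result was not tested.

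The 250 bases upstream of the RefSeq starts of Abcc2 and Abca12 are shown because these genes were at the low and high extremes in the same libraries. They lie at chr19:43782058-43782307 (plus strand) and chr1:71414911-71415160 (minus strand) of GRCm38.p6. A GENCODE transcript of Abcc2 starts further upstream, so that the last 116 bases of its window lie inside the GENCODE gene. Capitals mark exact matches on either strand to the GATA letters above and to CCAAT, and the other motifs searched were TATAAA, CAAAGTCCA (HNF4), CAAGGTCA (LRH-1), TTTATGG (CDX2) and GGGCGG (GC box). Abcc2 held 1 GATA match and 2 CCAAT matches, and Abca12 held a match to none of the 7 motifs. Over 32817 RefSeq promoters of this length, 16.6% hold a GATA match, 33.8% CCAAT, 12.4% TATAAA, 0.384% the HNF4 letters, 1.33% the LRH-1 letters, 2.43% the CDX2 letters and 32.7% the GC box. No match says only that these letters are not in this window. RefSeq promoter entries were found for 38 of the 50 members.
Abcc2: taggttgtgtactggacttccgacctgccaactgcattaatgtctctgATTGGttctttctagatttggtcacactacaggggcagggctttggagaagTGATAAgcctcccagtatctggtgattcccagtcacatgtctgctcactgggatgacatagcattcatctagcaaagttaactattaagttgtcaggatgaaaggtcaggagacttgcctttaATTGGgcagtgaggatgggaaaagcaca
Abca12: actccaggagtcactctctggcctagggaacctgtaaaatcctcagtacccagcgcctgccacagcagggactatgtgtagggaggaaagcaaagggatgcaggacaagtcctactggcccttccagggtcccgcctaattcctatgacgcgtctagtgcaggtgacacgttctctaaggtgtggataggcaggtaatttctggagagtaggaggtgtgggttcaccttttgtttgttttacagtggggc

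**Figure D4:**
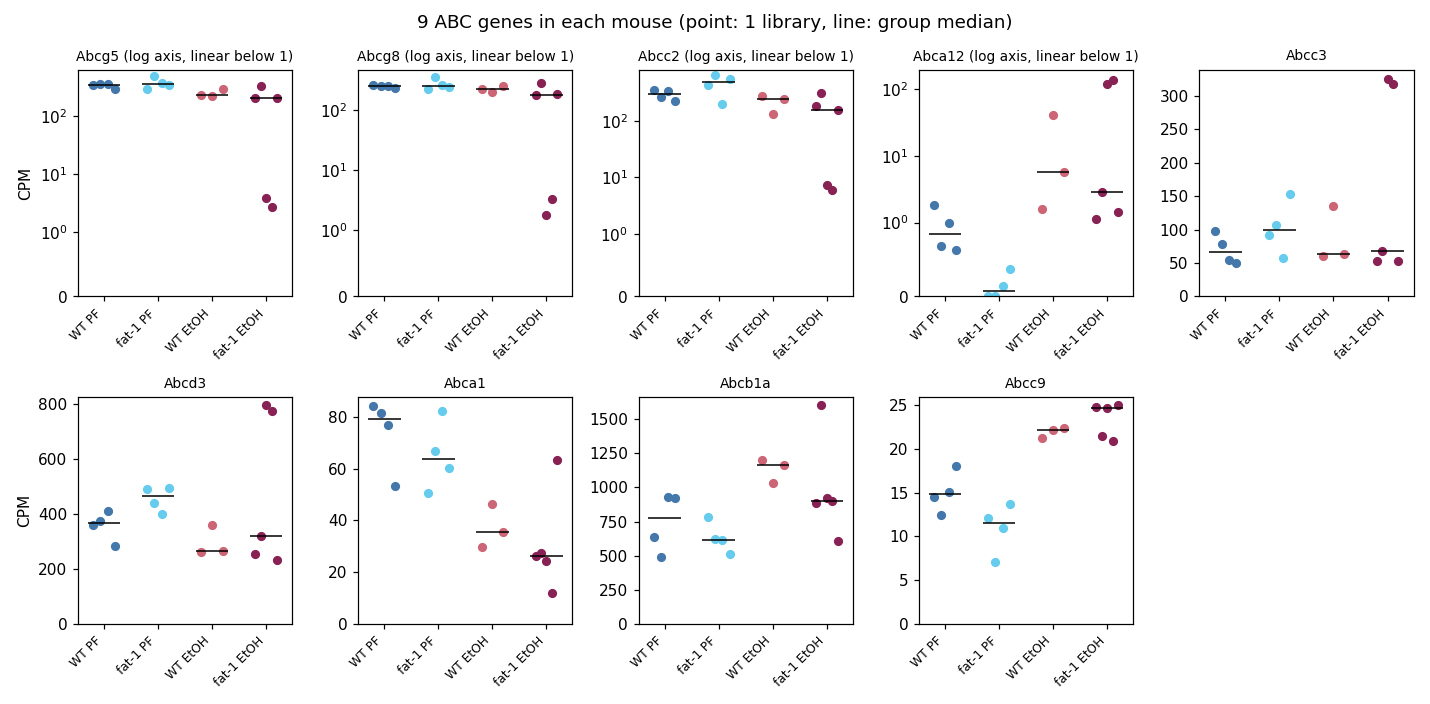
CPM of 9 ABC genes in each mouse, by group; points are libraries and lines are group medians, with a log axis (linear below 1) for Abcg5, Abcg8, Abcc2 and Abca12. Fat-1 EtOH mice 3 and 4 hold the lowest values of Abcg5, Abcg8 and Abcc2 and the highest of Abca12, Abcc3 and Abcd3, and Abcc9 separates EtOH from PF mice without overlap.

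4 further C members rose averaged over genotypes. Abcc9 (ENSMUSG00000030249, chr6:142587862-142702315, minus strand), the sulfonylurea receptor subunit of potassium channels in smooth muscle, was at 14.5, 12.4, 15.1 and 18.1 CPM in WT PF mice, 12.1, 7.02, 10.9 and 13.7 in fat-1 PF mice, 21.2, 22.1 and 22.3 in WT EtOH mice and 24.8, 21.4, 24.7, 20.8 and 25.03 in fat-1 EtOH mice. All 8 EtOH mice were above all 8 PF mice (0.82 ± 0.12, adjusted p = 0.000368), and without all 5 libraries that stood apart the value was 0.80, adjusted p = 0.00176. The summed level of 6 smooth muscle markers moved with it, from 905 to 1433 CPM in PF mice to 1856 to 4037 CPM in EtOH mice, and its part in the result was not tested. Abcc5, an exporter of cyclic nucleotides and heme, was at 22.2, 19.3, 26.1 and 20.8 CPM in WT PF mice, 26.2, 26.4, 19.3 and 29.8 in fat-1 PF mice, 37.9, 36.9 and 27.4 in WT EtOH mice and 32.8, 37.9, 47.7, 37.4 and 34.8 in fat-1 EtOH mice. WT EtOH and fat-1 EtOH mice were each above the PF mice of their genotype (0.61 ± 0.11, adjusted p = 0.00128). Abcc8, the other sulfonylurea receptor, rose from 0.956 to 2.28 CPM in PF mice to 1.28 to 7.86 CPM in EtOH mice (1.19 ± 0.32, adjusted p = 0.0101). Abcc1, a glutathione conjugate exporter, rose from 6.59 to 13.9 CPM in PF mice to 10.96 to 33.5 CPM in EtOH mice (0.90 ± 0.23, adjusted p = 0.00864), highest in fat-1 EtOH mice 3 and 4, and was not called without all 5 libraries that stood apart (0.45, adjusted p = 0.0666).

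Abcc6, known for its role in preventing ectopic calcification, was at 14.4, 73.7, 12.8 and 40.2 CPM in fat-1 PF mice, highest in mice 2 and 4, and at 11.7, 18.4, 8.35, 9.18 and 11.5 CPM in fat-1 EtOH mice. It fell in fat-1 mice (-1.57 ± 0.44, adjusted p = 0.0135) and averaged (-0.95 ± 0.34, adjusted p = 0.042), but the fat-1 value was -0.91, adjusted p = 0.0823 without fat-1 PF mouse 2 and 0.041, adjusted p = 0.942 without all 5 libraries that stood apart. The averaged call was lost in 12 of 16 fits that left out a library, without all 5 (-0.065, adjusted p = 0.835), with upper-quartile scaling (-0.85, adjusted p = 0.0562) and with voom (-0.77, adjusted p = 0.0578). Abcc4, an exporter of cyclic nucleotides and bile acids, ranged from 2.67 to 7.04 CPM and rose in fat-1 mice (0.60 ± 0.21, adjusted p = 0.035), a call lost in 5 of 16 fits that left out a library. Abcc10, at 28.6 to 44.4 CPM, was not called by edgeR with TMM scaling and all libraries in any comparison. Averaged over genotypes it was called with upper-quartile scaling (0.27, adjusted p = 0.0319), without the 2 PF libraries low in ileal genes (0.29, adjusted p = 0.0227) and without all 5 that stood apart (0.22, adjusted p = 0.0476).

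In subfamily B, the P-glycoprotein gene Abcb1a (ENSMUSG00000040584, chr5:8660077-8748575, plus strand) rose averaged over genotypes. Abcb1a was at 637, 487, 931 and 922 CPM in WT PF mice, 784, 619, 611 and 509 in fat-1 PF mice, 1201, 1036 and 1163 in WT EtOH mice and 882, 1609, 922, 899 and 609 in fat-1 EtOH mice. The 3 WT EtOH mice were above all 4 WT PF mice, whereas fat-1 EtOH mouse 5 lay within the fat-1 PF mice. The averaged log2 fold change was 0.62 ± 0.19, adjusted p = 0.0203, and in fat-1 mice alone it was 0.64 ± 0.25, adjusted p = 0.0595. It was not called without the PF libraries low in ileal genes (0.56, adjusted p = 0.0878) or without all 5 libraries that stood apart (0.63, adjusted p = 0.107). Its near copy Abcb1b was at 0.546 to 3.59 CPM and was not called; of the 75-base windows of their transcripts, 17.1% of those of Abcb1a and 9.01% of those of Abcb1b occur in another gene, so reads could be split between the pair. Abcb4, the phospholipid floppase of bile, and Abcb11, the bile salt export pump of the liver, had 52 and 12 counts over all libraries and were not tested.

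Among the organelle members of subfamily B, Abcb8 and Abcb9 fell averaged over genotypes. Abcb9, a lysosomal peptide transporter, was at 24.1, 23.2, 19.98 and 10.6 CPM in WT PF mice, 21.3, 43.5, 18.2 and 35.3 in fat-1 PF mice, 12.1, 9.76 and 11.8 in WT EtOH mice and 12.2, 12.4, 15.6, 12.7 and 11.96 in fat-1 EtOH mice. EtOH mice overlapped PF mice by way of WT PF mouse 4 alone (-0.99 ± 0.20, adjusted p = 0.00206), and the call held without all 5 libraries that stood apart (-0.69, adjusted p = 0.0199). Abcb8, a mitochondrial member linked to iron, fell by a smaller amount (-0.39 ± 0.10, adjusted p = 0.00721). Abcb10, which serves heme synthesis, was at 43.6 and 49.6 CPM in fat-1 EtOH mice 3 and 4, against 64.7 to 109 CPM in the other 14 libraries, and fell in fat-1 mice (-0.52 ± 0.18, adjusted p = 0.0336), a call lost in 5 of 16 fits that left out a library. That call was also lost without the 3 EtOH libraries high in large intestine markers and without the 2 PF libraries low in ileal genes. It held without all 5 libraries that stood apart. Abcb6, a porphyrin transporter, rose averaged (0.59 ± 0.19, adjusted p = 0.0273), with 96.9 and 88.8 CPM in fat-1 EtOH mice 3 and 4 against 26.5 to 57.8 CPM elsewhere. Its call was lost without fat-1 PF mouse 4 (0.54, adjusted p = 0.0502), without WT EtOH mouse 2 (0.50, adjusted p = 0.0756) and without all 5 libraries that stood apart (0.17, adjusted p = 0.278). Of the 75-base windows of Abcb6 transcripts, 47.5% occur in the annotated gene Gm29253.

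In the peroxisomal subfamily D, Abcd3 (ENSMUSG00000028127, chr3:121758774-121815302, minus strand), which carries branched and dicarboxylic acids and bile acid precursors, was at 358, 374, 409 and 281 CPM in WT PF mice, 489, 438, 401 and 495 in fat-1 PF mice, 263, 358 and 264 in WT EtOH mice and 255, 320.1, 797, 774 and 233 in fat-1 EtOH mice. Fat-1 EtOH mice 3 and 4 had the highest values, and the other fat-1 EtOH mice were below all fat-1 PF mice. The averaged log2 fold change of Abcd3 was -0.10 ± 0.25, adjusted p = 0.772, and without the 3 EtOH libraries high in large intestine markers it was -0.58, adjusted p = 0.00257, and without all 5 that stood apart -0.57, adjusted p = 0.00738; voom with all libraries also called it (-0.45, adjusted p = 0.0308). Abcd2, a peroxisomal fatty acid transporter, ranged from 2.65 to 22.6 CPM (0.95 ± 0.41, adjusted p = 0.0834 with edgeR, and 0.94, adjusted p = 0.0497 with DESeq2). Abcd4, which serves lysosomal cobalamin export, ranged from 19.3 to 49.2 CPM, lowest in fat-1 EtOH mice 3 and 4. Abcd4 missed the threshold averaged over genotypes with edgeR (-0.40, adjusted p = 0.0608) and passed it with DESeq2 (-0.41, adjusted p = 0.0462) and voom (-0.34, adjusted p = 0.0323), and without all 5 libraries that stood apart it was -0.22, adjusted p = 0.204.

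Of the 4 members that work on ribosomes, Abcf1 and Abcf3 fell averaged over genotypes. Abcf1, a regulator of translation initiation, ranged from 137 to 182 CPM in PF mice and from 100 to 142 CPM in EtOH mice and fell averaged (-0.35 ± 0.072, adjusted p = 0.00262). Abcf3 ranged from 53.4 to 71.9 CPM in PF mice and from 46.7 to 56.3 CPM in EtOH mice and fell averaged (-0.28 ± 0.061, adjusted p = 0.00307). Both calls held without all 5 libraries that stood apart. Abcf2, at 30.9 to 43.0 CPM, and the ribosome recycling factor Abce1, at 55.3 to 104 CPM, were not called by edgeR in any comparison.

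**Figure D5:**
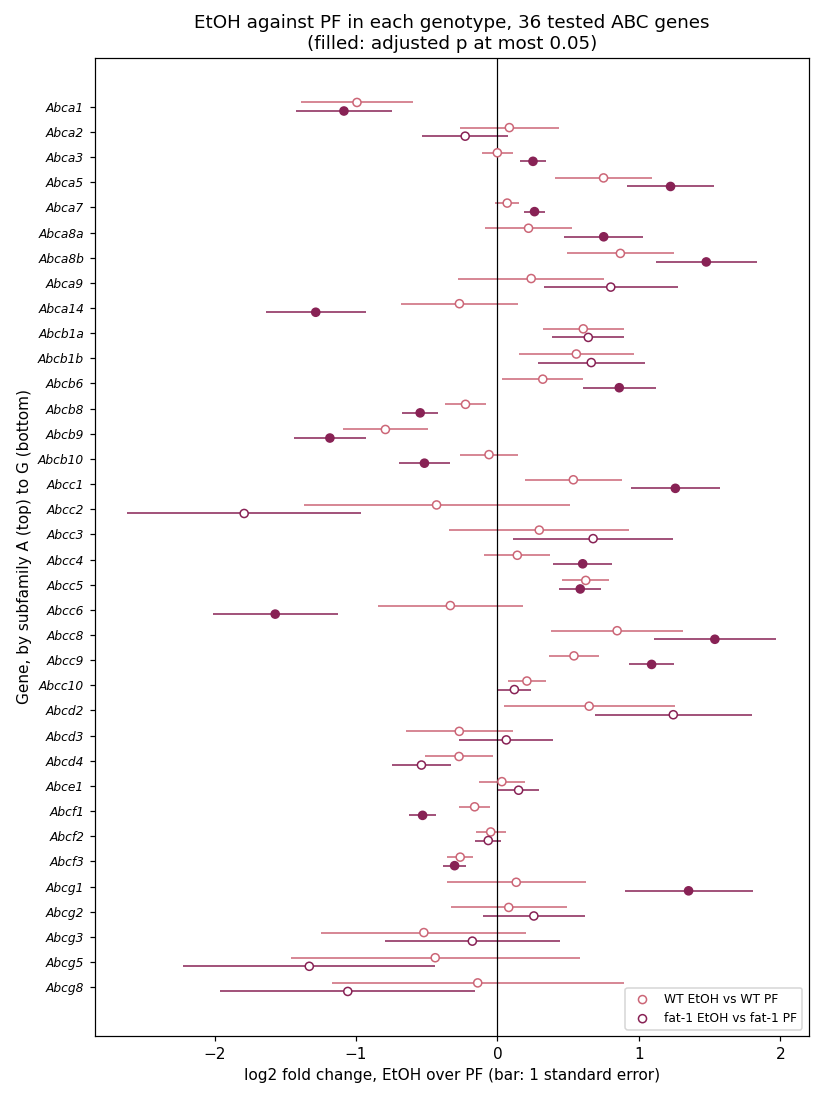
log2 fold change of EtOH over PF with 1 standard error for 36 tested ABC genes, in WT mice and in fat-1 mice; filled points have an adjusted p of at most 0.05. Abca12 and Abcg4 are left out for their few counts in fat-1 PF mice. No WT point is filled, and 20 of the 36 fat-1 points are filled.

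The genotypes were compared within each diet, to see whether ABC genes differed with the transgene. Among pair-fed mice, comparing fat-1 with WT, 0 of 40 members were called by edgeR, against 0% of all genes; 9 had an unadjusted p under 0.05, against 12.7% of all genes, and DESeq2 and voom called 0. In 3 of 40 members the groups did not overlap (Abcf1 higher, Abca7 and Abca12 lower in fat-1 PF mice), beside 6.87% of all genes. Among EtOH-fed mice, comparing fat-1 with WT, 0 of 40 were called, against 0.00724% of all genes; 1 had an unadjusted p under 0.05 (Abcb10), against 4.86%, and DESeq2 and voom called 0.

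The 10 members that were not tested had low counts. Abcb5 had 0 counts in all libraries, which allows up to 3 counts in each. Abca15 and Abca16 had 1 count over all libraries, Abca17 8, Abcc12 and Abcb11 11 and 12, Abca13 21, Abca4 29, Abcb4 52 and Abca6 74. Such limits and floors cover counting error only.

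Genes that work with the members were read in the same fit, as lists chosen with earlier results of these data known. The averaged counts below stand beside 17.6% of all genes tested that fell and 18.3% that rose, and those without the 5 libraries that stood apart beside 14.7% that fell and 12.9% that rose. Of 12 peroxisomal partners of subfamily D, 8 fell averaged over genotypes and 0 rose, with log2 fold changes of -1.11 ± 0.14 for the lipid carrier Scp2, -1.70 ± 0.34 for the very long chain acyl-CoA synthetase Slc27a2 and -0.47 ± 0.076 for Pex19, the import receptor of peroxisomal membrane proteins. The median of the list was -0.54, beside 0.04 over all genes tested, and without the 5 libraries 9 fell and 0 rose. Of 20 genes of drug metabolism and uptake, 9 fell and 0 rose, led by Cyp2b10 (-6.83 ± 0.61) and Cyp3a11 (-3.99 ± 0.80), with a median of -0.54, and without the 5 libraries 12 fell and 0 rose. Of 10 peptide loading partners 7 fell and 0 rose (median -0.55), and of 11 mitochondrial heme and iron-sulfur partners 5 fell and 0 rose (median -0.17). Without the 5 libraries these counts were 3 and 0 for peptide loading and 4 and 1 for heme and iron-sulfur partners. Among 14 sterol and lipoprotein genes Npc1 rose (0.45 ± 0.094) and Apoa4, Mttp and Soat2 fell, and without the 5 libraries 2 rose and 5 fell. Of 18 transcription factors known to regulate ABC genes, 6 fell, among them the drug receptors Nr1i3 (-4.52 ± 0.55) and Nr1i2 (-0.56 ± 0.13) and the oxysterol receptor Nr1h3 (-0.96 ± 0.21), and 2 rose, the bile acid receptor Nr1h4 (0.93 ± 0.32) and Nr5a2 (0.49 ± 0.15), and without the 5 libraries 4 fell and 2 rose. Of 8 translation partners 2 rose and 2 fell (1 and 2 without the 5 libraries), and of 6 ileal bile acid genes 0 were called averaged and 1 rose in fat-1 mice. Cftr, Tap1 and Tap2, which encode ABC proteins under other symbols, were not called averaged over genotypes.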

How the data were processed

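The authors deposited a table of raw counts, 1 row per Ensembl gene and 1 column per library, from reads that tophat2 had aligned to mm10; the counting tool's version, strand and overlap settings are not given in the sources used here, so reads of overlapping genes could not be told apart. The submitters' processing notes also name bcl2fastq, FastQC 0.10.1 and Cufflinks. Symbols, positions and exon lengths were taken from GENCODE M21 (26 of 21965 genes absent), and promoters from RefSeq (GRCm38.p6). The members and lists were chosen with earlier results of these data known.

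The main test used edgeR 4.0.16 in R 4.3.3, with filterByExpr on the 4 groups (13811 genes kept), TMM, and a robust quasi-likelihood fit of all 16 libraries with 1 mean per group, with Benjamini-Hochberg adjustment at 0.05. Errors (±) are standard errors of log2 fold changes. Each library is a separate mouse. A count of 3 corresponds to 0.246 to 0.421 CPM. Members given in full were those called with the largest changes (up to 10 per comparison), the 2 of highest level per subfamily, those with textbook roles in the gut, and the 3 largest changes not called; other members named were chosen after their values were seen. Alternatives were DESeq2 1.42.0 (size factors and Wald test), upper-quartile scaling, limma 3.58.1 voom, a looser and a stricter filter, a fit without the other groups, a block for the replicate number, and leaving out each library. 3 alternatives without libraries that stood apart were added after seeing the data. Same-numbered mice did not deviate together on average (mean correlation of their residuals -0.022 over 21 pairs, against 0.0070 over 74 other pairs). A pairing by number was not seen, but this mean over all groups cannot exclude one. Results of 2 members are not reported here. Cuffdiff2 results and C. elegans reads were not analysed here.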

Additional observations from a re-analysis of the deposited data

Results flagged for a closer look

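Sets of values of 1 gene in 1 group of 4 or 5 mice were examined for a mouse far from the rest (by the gap to its neighbour over the range of the group). Of 84 such sets, 6 were singled out, and chance alone singles out about 1 in 20. Mice far from the rest but near each other can be missed by this rule. Abcg1 was at 17.08 CPM in fat-1 EtOH mouse 5, against 3.47 to 4.08 CPM in the other 4, and at 3.386 CPM in WT PF mouse 1, against 4.19 to 4.36 CPM in the other 3. Abcg5 was at 297.5 CPM in WT PF mouse 4, against 352 to 362 CPM in the others, and Abcd2 at 10.91 CPM in the same mouse, against 2.83 to 3.60 CPM. Abcb9 was at 15.64 CPM in fat-1 EtOH mouse 3, against 11.96 to 12.74 CPM in the other 4, and Abcc8 at 1.244 CPM in WT PF mouse 2, against 2.11 to 2.28 CPM in the others.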

How the results depend on the processing

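Averaged over genotypes, 14 to 22 members were called in every alternative, beside 20, and leaving out single libraries gave 15 to 22. In fat-1 mice that range was 18 to 25, beside 24, and the count was 10 with voom (which did not call Abca12, Abca14, Abca3, Abca7, Abca8a, Abcb10, Abcb6, Abcc1, Abcc4, Abcc5, Abcc6, Abcc8, Abcf3 and Abcg1), 13 when only the groups compared were fitted, 7 without the 2 PF libraries low in ileal genes and 6 without all 5 that stood apart. In WT mice 0 members were called when single libraries were left out, 1 with the DESeq2 Wald test (beside 1.86% of all genes) and 10 with voom (beside 20.3%). Members were also called when only the groups compared were fitted and without all 5 libraries, where the share of all genes is not given here. With the replicate number as a block, 19 of the 24 fat-1 calls and 17 of the 20 averaged calls were kept, and 0 were made in WT mice. Both genotype comparisons and the interaction kept 0 members in every alternative run. The log2 fold change of Abcc3 turned negative in WT mice with voom (-0.0085), without WT EtOH mouse 2 (-0.18, the lowest of the fits without 1 library, the highest being 0.50), without the 3 EtOH libraries high in large intestine markers (-0.18) and without all 5 (-0.17); in fat-1 mice with voom (-0.48), without the 3 (-0.79) and without all 5 (-0.36); and averaged with voom (-0.25), without the 3 (-0.48) and without all 5 (-0.26). Abcd3 turned negative in fat-1 mice with voom (-0.53), without fat-1 EtOH mouse 3 (-0.19) or mouse 4 (-0.17; the highest without 1 library was 0.25), without the 3 (-0.73) and without all 5 (-0.71), and was 0.0039 averaged with upper-quartile scaling. In fat-1 mice Abcc6 was 0.041 without all 5, and Abcg2 -0.18 without the 2 PF libraries, where its averaged value was -0.048. The cause of these moves was not tested. Members under about 3 CPM rest on few counts.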
